A study of Mus musculus with 304 samples.

Results

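The potassium channel genes were taken as every gene symbol starting with Kcn in the whole-number count table, except Kcnj3, Kcnj6 and Kcnj9. They numbered 91 of the 94 Kcn symbols and of 22800 genes in all. They comprised 74 pore-forming subunit genes, 16 auxiliary subunit genes and Kcnrg, a regulator of channel assembly, and were placed in 10 families. Their levels were described in mouse dentate gyrus granule cells, the neurons that receive the cortical input to the hippocampus and send mossy fibres to CA3. The cytosol of each cell had been drawn into a patch pipette and made into 1 library (patch-seq).

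Cells came from 5 groups, and only cells marked as having passed quality control were used. The uninjected group (DG) held 31 cells from mice that had received no injection. The day 1 group (KA1_DG_ipsi) held 58 cells, labelled as from the ipsilateral side, taken 1 day after 70 nl of 5 mM kainic acid, a glutamate receptor agonist that provokes seizures, had been injected into the hippocampus. The day 14 group (Kainate_DG) held 29 cells taken 14 days after the same injection, with no side given in the label. The GFP group (GFP_Control, 59 cells) and the Id2 group (Id2_OE, 71 cells) were taken 1 month after injection of an adeno-associated virus that overexpressed GFP or Id2, an inhibitor of basic helix-loop-helix transcription factors. Strain, age, sex, the promoter of the virus and the animal behind each cell were not given in the labels, and no vehicle-injected group is analysed here.

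Because no label names an animal, each group counted as 1 sample, and no p-value or standard error could be given. A level is given in CPM, the group's summed reads of a gene scaled to a fixed total of reads, with an exact Poisson 95% interval. A share is the percentage of cells with at least 1 read, with an exact Clopper-Pearson 95% interval. Both intervals cover counting error only, of reads for a level and of cells for a share, and say nothing of the spread between animals. Reads are not independent molecules here, so the interval of a level does not cover the counting of molecules. To be counted as measured, a gene needed reads in 20% or more of the cells, and 5 CPM or more, in either of the 2 groups compared. It was called higher or lower where 3 log2 ratios of (CPM + 1), from summed reads, from the mean over cells, and from cells thinned to 100000 reads, were each at least 1 in size with 1 sign. The sign also had to hold within the sets of sample titles described below, where these could be compared. A called difference is therefore one of size, not of statistical significance, and a fold is the ratio of the 2 summed CPM values.

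Depth was lowest in the uninjected cells, at a median of 1738610 reads per cell against 3317227 to 7615492 in the other groups, and 2 uninjected cells were too shallow to be thinned. Uninjected cells carried titles beginning with J (22 cells) or other titles (9 cells), and virus cells carried titles up to IDS 95 or later IDS titles, so both were split by title. The day 1 and day 14 titles do not overlap, and neither shares a title set with the uninjected cells, so title set and treatment cannot be told apart there. Prox1, a granule cell transcription factor, stood at 217 to 296 CPM in all groups, while Calb1 stood at 411 CPM at day 1, 702 CPM at day 14 and 1117 to 1249 CPM in the other 3 groups. Other granule cell markers differed between groups, and 8 of them summed to 3161, 1253, 1319.9, 3529.9 and 2402 CPM in uninjected, day 1, day 14, GFP and Id2 cells, with C1ql2 at 857 CPM in GFP and 366 CPM in Id2 cells. The summed level of 14 microglia markers was 3579 CPM in uninjected and 755 CPM in day 1 cells, reached 6260 CPM at day 14, and was 177 CPM in GFP and 588 CPM in Id2 cells. Of these, P2ry12 had no read at day 1. Cells with 1000 CPM or more of these markers numbered 18, 7, 20, 2 and 11 in the same order. The interneuron gene Gad2 stood at 111.3 CPM at day 14, 29.6 CPM at day 1 and under 1 CPM elsewhere. Gad1, however, was read in every group, from 356 CPM in Id2 to 1072 CPM in day 14 cells. All 7 interneuron markers summed to 674, 689, 1184, 582 and 357 CPM in uninjected, day 1, day 14, GFP and Id2 cells. The part of these differences in the potassium channel results was not tested, except where values without the microglia-rich cells are given.

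Potassium channels let potassium leave a neuron, and so set its resting potential, shape and end its action potentials and limit repeated firing. Voltage-gated channels assemble from 4 pore subunits and take up cytosolic or membrane partners: beta subunits (Kcnab) for Kv1 channels, and KChIP proteins (Kcnip) for Kv4 channels, which carry a fast, transient current in dendrites. Two-pore channels (Kcnk) carry background current at rest, inward rectifiers (Kcnj) hold the membrane near rest, and calcium-activated channels (Kcnma, Kcnn) open after calcium entry. Mature granule cells are known for a very negative resting potential and sparse firing.

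**Figure D1:**
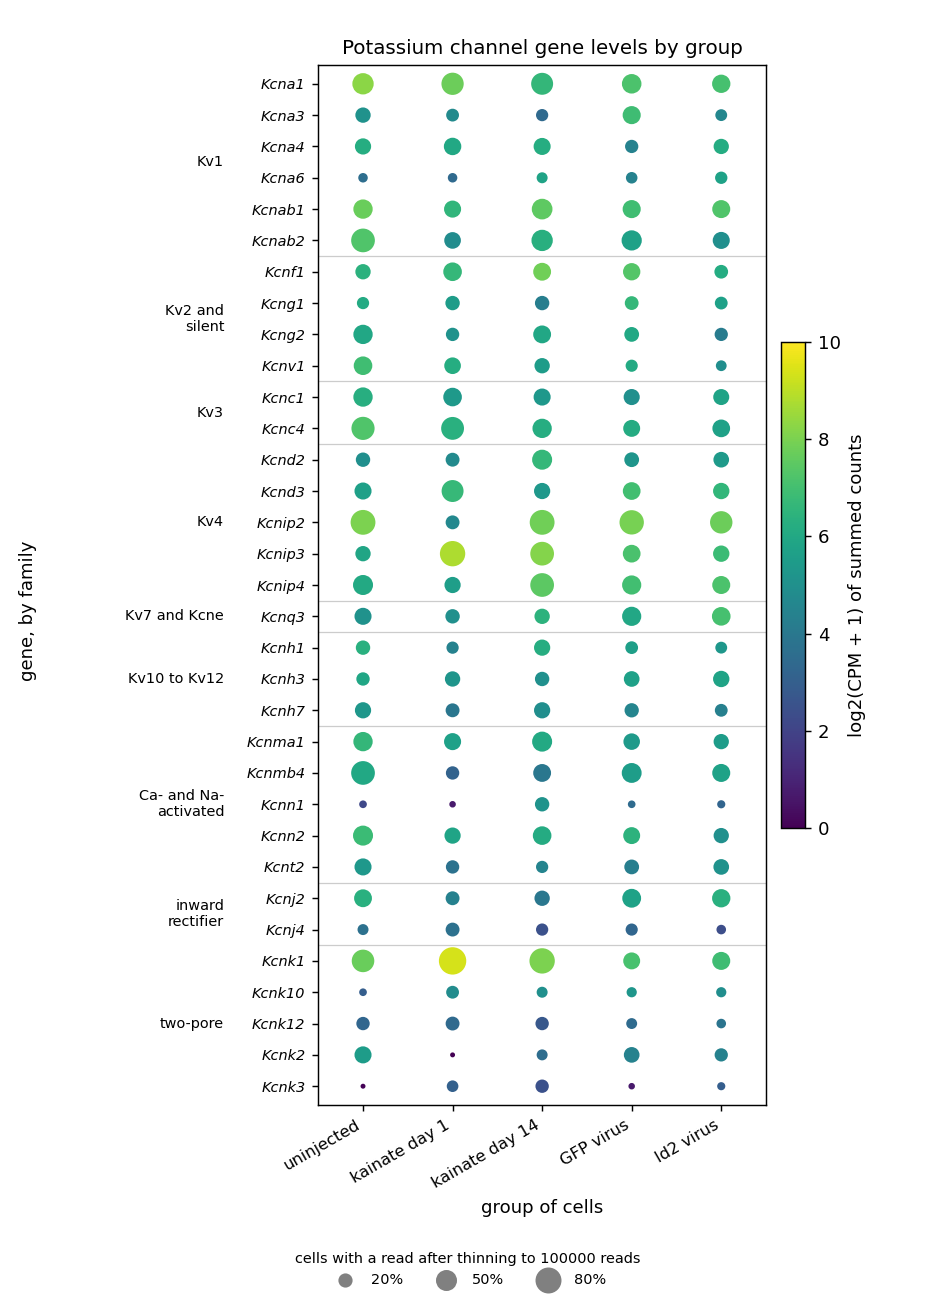
Dot plot of 33 of the potassium channel genes measured in at least 1 comparison (rows, by family) in the 5 groups of cells (columns). Colour is log2(CPM + 1) of summed counts and dot area follows the share of cells with a read after thinning to 100000 reads. The Kcnip2 dot is small and dark at day 1 only, where the Kcnip3 and Kcnk1 dots are the brightest of the plot.

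In uninjected cells the level per kilobase of exon was led by Kcnk1 (94.6 CPM per kb), Kcnip2 (75.6 CPM per kb), Kcna1 (63.6 CPM per kb) and Kcnc4 (40.9 CPM per kb). At day 1 Kcnk1 stood at 289.7 CPM per kb and Kcnip3 at 122.3 CPM per kb, and Kcnip2 was no longer among the leading 12 genes. At day 14 the order began with Kcnk1 (115.5 CPM per kb), Kcnip3 (80.02 CPM per kb) and Kcnip2 (64.9 CPM per kb), and in GFP cells it began with Kcnip2 (70.5 CPM per kb), Kcna3 (62.0 CPM per kb) and Kcnk1 (60.8 CPM per kb). The spread between animals is unknown, so neighbouring ranks within a group are not claimed to differ. The summed level of all 91 genes moved much less, at 3006, 2679, 2753, 2668 and 2483 CPM in uninjected, day 1, day 14, GFP and Id2 cells. Of the 91 genes, 36 were measured in at least 1 of the 5 comparisons, 27 in all 5 and 55 in none. The 55 included Kcna2, Kcnb2, Kcnc2, Kcnd1, Kcnq5, Kcnt1 and all 4 Kcne genes with the Kcne1-like gene Kcne1l, which had no read in any group.

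Single cells varied widely. The lowest cell of every group was at 0 for each of the 32 genes that met the rule for naming, so the groups overlapped for every gene at the level of cells. The median cell was above 0 for 10 of the 32 genes in the uninjected and day 14 groups, 9 in the day 1 group, 7 in GFP cells and 5 in Id2 cells. After thinning, a cell held reads of a median of 12 of the 91 genes in uninjected cells, 11 in the day 1, day 14 and GFP groups, and 9 in Id2 cells.

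Kcnip2, Kcnip3 and Kcnip4 encode KChIP partners of Kv4 channels, and each was called in at least 1 comparison. The promoter windows of Kcnip2 and Kcnip3 (250 bases before to 50 after a transcript start, RefSeq, GRCm38.p6) are shown because the pair moved in opposite directions at day 1. Capitals mark matches to 2 of the 4 motifs searched on both strands, CAGCTG (an E-box, the kind of site bound by basic helix-loop-helix factors) and TGANTCA (the kind of site bound by AP-1 factors). The Kcnip3 window lies on the minus strand at chr2:127522045-127522344 and is 1 of 3 for this gene, shown because it alone of the 3 held a match, and the Kcnip2 window lies on the minus strand at chr19:45816014-45816313.

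Kcnip3: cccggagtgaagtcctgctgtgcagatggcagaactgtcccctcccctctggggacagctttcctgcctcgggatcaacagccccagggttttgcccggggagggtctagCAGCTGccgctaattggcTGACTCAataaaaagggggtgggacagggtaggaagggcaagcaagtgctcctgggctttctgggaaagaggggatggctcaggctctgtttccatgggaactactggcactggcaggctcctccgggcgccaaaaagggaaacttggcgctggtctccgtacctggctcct
Kcnip2: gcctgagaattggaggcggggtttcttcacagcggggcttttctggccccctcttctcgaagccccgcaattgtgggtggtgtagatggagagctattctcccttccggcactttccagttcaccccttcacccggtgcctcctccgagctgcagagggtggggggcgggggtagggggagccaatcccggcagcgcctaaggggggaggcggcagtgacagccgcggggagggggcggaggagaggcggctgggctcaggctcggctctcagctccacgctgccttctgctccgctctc

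The Kcnip3 window shown held 1 match to each of these motifs. The other 2 Kcnip3 windows and the single Kcnip2 window held none of the 4. Among 32851 promoter windows, CAGCTG was present in 16.3%, TGANTCA in 7.81%, CACGTG in 7.15% and TGACGTCA in 1.79%. Among the 90 windows of the 66 potassium channel genes in the table, CAGCTG was present in 23 (25.6%), CACGTG in 7 (7.78%), TGANTCA in 4 (4.44%) and TGACGTCA in 0. A match describes letters only and is not a binding site.

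Kcnip2, a KChIP that speeds recovery and raises surface levels of Kv4 channels (chromosome 19, 45791839 to 45816061, minus strand, GRCm38), was read in 25 of 31 uninjected cells, with a median cell of 174 CPM and a highest of 1335 CPM. At day 1 it was read in 15 of 58 cells, with a median of 0 and a highest of 318 CPM. At day 14 it was read in 22 of 29 cells, with a median of 176 CPM and a highest of 1581 CPM. The day 1 cells were therefore low, and the uninjected and day 14 cells had nearly the same median. GFP cells (46 of 59 with a read, median 154 CPM, highest 1205 CPM) had a median near that of uninjected cells. Id2 cells (49 of 71, highest 1848 CPM) had a lower median, at 31.8 CPM, although their summed level was 212 CPM and that of GFP cells 245 CPM. The summed level was 263 CPM (interval 259 to 267) in uninjected cells and 24.2 CPM (23.7 to 24.6) at day 1, 10.9-fold lower, and 226 CPM (224 to 227) at day 14. The share of cells with a read was 80.6% (62.5 to 92.6), 25.9% (15.3 to 39.04) and 75.9% (56.5 to 89.7) in these 3 groups. Without the microglia-rich cells the levels were 419, 25.8 and 291 CPM.

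Kcnip3 encodes KChIP3, also known as DREAM or calsenilin, a calcium sensor that acts both on Kv4 channels and as a transcriptional repressor. The gene lies on chromosome 2, 127456498 to 127522094, minus strand. It was read in 9 of 31 uninjected cells (median 0, highest 508 CPM), in 45 of 58 day 1 cells (median 265 CPM, highest 1092 CPM) and in 19 of 29 day 14 cells (median 72.7 CPM, highest 1986 CPM). Both kainate groups were high, and the uninjected cells were low. Summed levels were 58.3 CPM (56.5 to 60.2), 434 CPM (432 to 435) and 284 CPM (282 to 286), which made day 1 7.43-fold and day 14 4.87-fold higher than uninjected. GFP cells stood at 140 CPM, called 2.40-fold higher than uninjected, and Id2 cells at 110.8 CPM. The GFP call was lost against controls with other titles alone, where the log2 ratio was 0.45, and without the deepest 10% of cells, where it was 0.62 and the sign did not hold across title sets. Against J-titled controls (37.9 CPM) the day 1 log2 ratio was 3.48, and against the others (102.5 CPM) it was 2.07.

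Counted in the same thinned cells, Kcnip2 alone was read in 15 of 29 uninjected cells and Kcnip3 alone in 1, with both in 6 and neither in 7. At day 1, Kcnip3 alone was read in 35 of 58 cells and Kcnip2 alone in 2, with both in 9 and neither in 12. At day 14 both were read in 15 of 29 cells, Kcnip2 alone in 6, Kcnip3 alone in 4 and neither in 4. Cells with Kcnip2 alone thus formed the most frequent class in uninjected cells, Kcnip3 alone at day 1 and both together at day 14. GFP cells held 26 of 59 with Kcnip2 alone, 5 with Kcnip3 alone and 15 with both, and Id2 cells 24, 3 and 17 of 71.

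**Figure D2:**
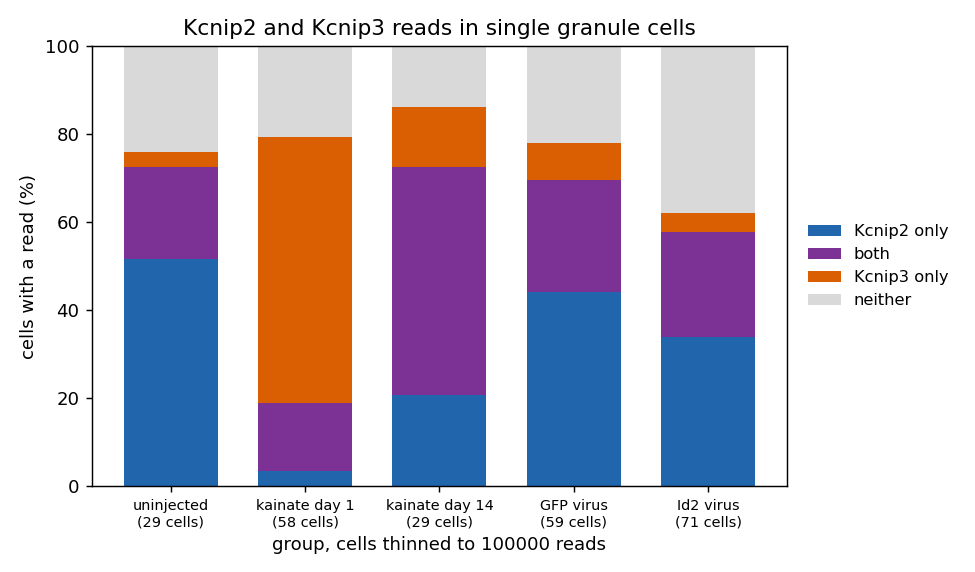
Stacked bars of the share of cells (y axis, %) with reads of Kcnip2 only, of both genes, of Kcnip3 only or of neither in each group, after each cell was thinned to 100000 reads. Kcnip3 without Kcnip2 takes 60.3% of day 1 cells and 3.45% of uninjected cells, and both genes together take 51.7% of day 14 cells.

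Kcnip4, another KChIP, was read in 14 of 31 uninjected cells (median 0, highest 664 CPM), 22 of 58 day 1 cells (median 0, highest 660 CPM) and 21 of 29 day 14 cells (median 54.1 CPM, highest 919 CPM). Its summed level was 63.7, 45.95 and 178 CPM, called 3.88-fold lower at day 1 than at day 14. Day 14 against uninjected missed the call, with log2 ratios of 1.47 from summed reads and 0.97 from cell means. Kcnd2, the Kv4.2 pore gene, was likewise called lower at day 1 (25.9 CPM, 14 of 58 cells, highest 430 CPM) than at day 14 (99.7 CPM, 14 of 29 cells, highest 699 CPM), 3.85-fold. Its uninjected level was 29.4 CPM, and the ratio of cell means (0.81 on the log2 scale) kept day 14 against uninjected below the call. Kcnip4 stood at 123.9 CPM in GFP and 143 CPM in Id2 cells, and Kcnd2 at 36.6 and 41.8 CPM.

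In the family as a whole, 5 of 7 Kv4 genes were measured. Against day 14, 3 were called lower at day 1 and none higher, where 14.4% of all 9823 genes measured were called lower and 13.2% higher. The median log2 ratio of the 5 was -1.90. The other 2, Kcnip3 and the pore gene Kcnd3, had ratios above 0 and were not called. The day 1 and day 14 groups hold 7 of 58 and 20 of 29 microglia-rich cells. Without those cells the level of Kcnd2 was 28.7 CPM at day 1 and 131 CPM at day 14, and that of Kcnip4 was 42.9 and 147 CPM.

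Of 5 two-pore channel genes measured at day 1 against uninjected, 3 were called higher and 1 lower, where 16.2% of all 9079 genes measured were called higher and 9.19% lower. One of the 3, Kcnk10, was called in 6 of 11 alternatives. Kcnk3 and Kcnk10 had reads in 20% or more of the cells at day 1 only. They thus entered the count through the group where they were high, and the number of higher calls is partly set by the filter. Kcnk2, called lower, likewise had reads in 20% or more of the cells in the uninjected group only. Kcnk1, the weakly conducting TWIK-1 channel (chromosome 8, 125995170 to 126030685, plus strand), was read in 19 of 31 uninjected cells (median 103.7 CPM, highest 1939 CPM), 53 of 58 day 1 cells (median 506 CPM, highest 1789 CPM) and 24 of 29 day 14 cells (median 227 CPM, highest 914 CPM). Day 1 cells were the highest group by median and share, though the highest single cell was uninjected. The summed level was 211 CPM (208 to 215), 647 CPM (645 to 650) and 258 CPM (256 to 260). Day 1 was called 3.06-fold higher than uninjected and 2.51-fold higher than day 14. GFP and Id2 cells stood at 136 and 119.1 CPM, with a median of 0 in both.

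Kcnk2, the mechanically and lipid-gated TREK-1 channel (chromosome 1, 189207930 to 189402273, minus strand), was read in 11 of 31 uninjected cells (median 0, highest 489 CPM) and in 3 of 58 day 1 cells, the highest of which reached 1.07 CPM. The 58 day 1 cells gave 10 reads in all. The level was 43.4 CPM (41.8 to 44.98) against 0.0215 CPM (0.0103 to 0.0396), called lower at a log2 ratio of -5.44 on the CPM + 1 scale. After thinning, no day 1 cell held a read of Kcnk2, while 52 of the 58 held Kcnk1. Day 14 stood at 10.6 CPM, read in 3 of 29 cells, and 1 cell gave 88.4% of those reads. GFP and Id2 cells stood at 20.7 and 20.1 CPM, read in 21 of 59 and 20 of 71 cells. The uninjected level itself was uneven, at 61.2 CPM in J-titled and 4.75 CPM in the other cells, and against the latter the day 1 log2 ratio was -2.49 but the gene did not reach the levels needed to be measured.

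Kcnk3, the acid-sensitive TASK-1 channel, had 3 reads in uninjected cells (0.0447 CPM, 0.00921 to 0.131) and 3377 reads in 13 of 58 day 1 cells (7.27 CPM, 7.03 to 7.52), and was called higher at day 1. After thinning, 12.1% of day 1 cells and no uninjected cell held a read. In Id2 cells it stood at 6.69 CPM, with 73.1% of reads from 1 of 71 cells. Kcnk10, the TREK-2 gene, was called higher at day 1 (27.3 against 6.80 CPM), but 1 uninjected cell gave 99.3% of the uninjected reads. Without the highest cell of each group, or without microglia-rich cells, under 20% of the cells of either group had a read and it was not measured. Set against GFP cells in place of uninjected cells its log2 ratio turned to -0.42. The microglial two-pore gene Kcnk13 was read in 1 to 5 cells of each group, and Kcnk6 in at most 1.

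Over all families, 34 of the 91 genes were measured at day 1 against uninjected. Of these, 11 (32.4%) were called, against 25.4% of all 9079 genes measured. Called higher were 4 (11.8%, against 16.2% of all genes) and called lower 7 (20.6%, against 9.19%). The median log2 ratio of the measured members was -0.64 and that of all genes 0.17, with 9 members above 0 and 25 below. The 6 auxiliary subunit genes had a median of -1.80 and the 28 pore genes one of -0.54. Besides Kcnip2 and Kcnk2, the lower calls included Kcnmb4, Kcnab2, Kcnj2 and Kcnh1. The microglia sum was also lower at day 1 than in uninjected cells, so calls that ended without those cells are pointed out.

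Kcnmb4 encodes the neuronal beta subunit of the large-conductance, calcium-activated BK channel, and slows the gating of its pore subunit Kcnma1. It was read in 21 of 31 uninjected cells (median 22.8 CPM, highest 595 CPM), 17 of 58 day 1 cells (median 0, highest 127.2 CPM) and 12 of 29 day 14 cells (median 0, highest 103.2 CPM). Both kainate groups were low, with summed levels of 62.0 CPM, 7.74 CPM and 14.5 CPM, or 8.01-fold and 4.28-fold lower. GFP and Id2 cells stood at 45.6 and 52.9 CPM. Without the microglia-rich cells the log2 ratios were -2.47 at day 1 and -0.82 at day 14. Neither was then called. In both, the sign did not hold in 1 of the 2 title sets of the 13 remaining uninjected cells, and the day 14 ratio was also below the size needed. Kcnma1 itself was at 98.3, 49.7, 65.4, 41.5 and 43.9 CPM in uninjected, day 1, day 14, GFP and Id2 cells and was called in no comparison.

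Kcnab2, a cytosolic beta subunit of Kv1 channels, was read in 22 of 31 uninjected cells (median 107.7 CPM, highest 829 CPM), 29 of 58 day 1 cells (median 0.0627 CPM, highest 539 CPM) and 17 of 29 day 14 cells (median 15.9 CPM, highest 454 CPM). Uninjected cells were highest, at 152 CPM summed against 27.5 CPM at day 1 (5.55-fold lower), 77.4 CPM at day 14, 52.0 CPM with GFP and 29.6 CPM with Id2. It was also called lower at day 1 than at day 14 (2.82-fold) and in GFP than in uninjected cells (2.94-fold). The call against day 14 was kept in 3 of 8 alternatives only. It was lost with a pseudocount of 5 CPM, with the scaled signal (log2 ratio -0.89), without the microglia-rich or the deepest cells, and with thinning to 50000 reads. Set against GFP cells, the day 1 log2 ratio was -0.89 and missed the call. Kcnab1, its paralogue, was called nowhere and stood at 212, 93.3, 181, 121.4 and 149 CPM in the same order of groups.

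Kcnj2, the strong inward rectifier Kir2.1 that helps set the resting potential of granule cells, was at 79.98 CPM in uninjected cells (15 of 31 with a read, highest 869 CPM), 19.5 CPM at day 1 (25 of 58, highest 277 CPM) and 14.5 CPM at day 14 (8 of 29, highest 235 CPM). Both kainate groups were called lower, 4.10-fold and 5.52-fold, while GFP and Id2 cells stood at 53.5 and 80.4 CPM. Without the microglia-rich cells the levels were 77.7, 21.6 and 7.60 CPM. The day 1 and day 14 calls were then lost, because the sign did not hold in 1 of the 2 title sets of the remaining uninjected cells. Kcnj4, the related Kir2.3 gene, was at 11.96 CPM at day 1 and 4.602 CPM at day 14 and was called 2.60-fold higher at day 1, a call lost with a pseudocount of 5 CPM. Its uninjected level of 11.8 CPM came to 95.5% from 1 cell.

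Kcnh1, an ether-a-go-go channel gene, was at 80.5 CPM in uninjected cells (7 of 31 with a read, highest 411 CPM), 19.9 CPM at day 1 (13 of 58, highest 263 CPM) and 74.4 CPM at day 14 (8 of 29, highest 1088 CPM). Day 1 was called lower than both, 4.04-fold and 3.74-fold, although the shares of cells with a read were 22.6%, 22.4% and 27.6%. The shares were close and the levels were not. Kcnh3, of the same family, was called nowhere and stood at 30.8 to 59.7 CPM.

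**Figure D3:**
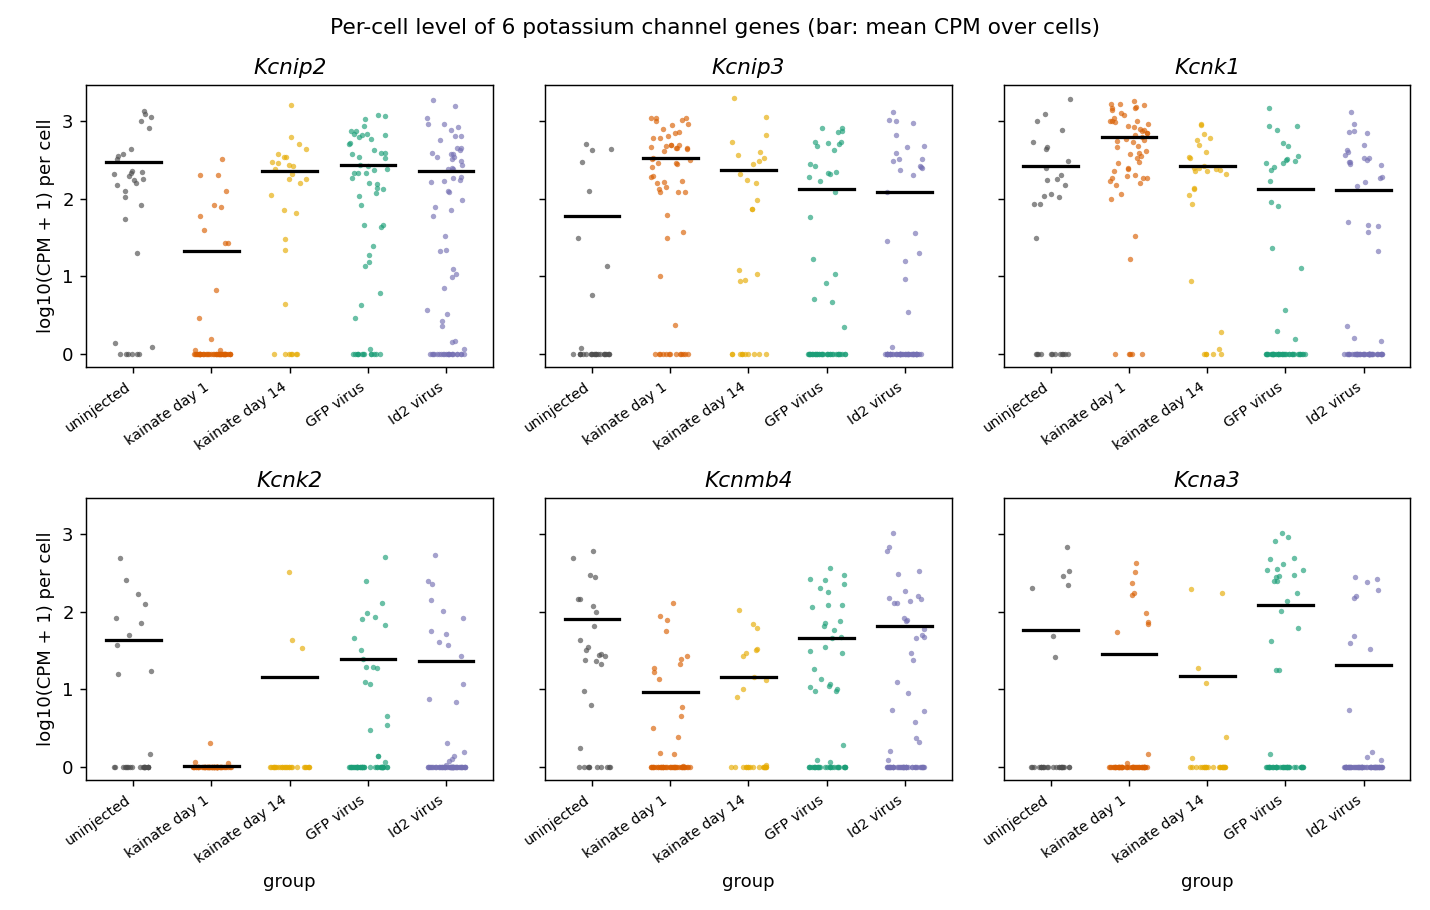
Points show single cells of the 5 groups (x axis) for 6 potassium channel genes, on a y axis of log10(CPM + 1), and bars mark the mean CPM over the cells of a group. Every group has cells at 0, while most day 1 cells have Kcnip3 and Kcnk1 reads and few have Kcnip2 reads.

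At day 14 against uninjected, 33 genes were measured and 7 (21.2%) were called, against 26.2% of all 9469 genes measured. Higher calls were 4 (12.1%, against 17.6%) and lower calls 3 (9.09%, against 8.67%), shares near those of all genes. The median log2 ratio of members was -0.53 against 0.14 for all genes. Besides Kcnip3, Kcnmb4 and Kcnj2, the calls were Kcnn1, Kcnf1, Kcnq3 and Kcna1. When GFP cells took the place of uninjected cells, the members' median was 0.21, and only Kcnmb4 and Kcnj2 of the 7 calls were kept.

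Kcnn1, a small-conductance calcium-activated (SK) channel gene, was read in 1 of 31 uninjected cells (101.03 CPM), 4 of 58 day 1 cells (highest 43.4 CPM) and 7 of 29 day 14 cells (highest 684 CPM). Day 14 was high at 34.5 CPM against 3.54 and 0.605 CPM, though 1 day 14 cell gave 69.7% of the reads and the level without it was 10.8 CPM. Only the day 14 group reached the share of cells needed for Kcnn1 to be measured. Kcnn1 thus entered both comparisons through the group where it was high. The number of calls higher at day 14, against uninjected and against day 1, is therefore partly set by the filter. The call against day 1 was kept without the highest cells, and the call against uninjected was lost without the microglia-rich cells. Kcnq3, a subunit of the M-channel that damps repeated firing, was at 32.5 CPM in uninjected cells (11 of 31, highest 615 CPM), 30.9 CPM at day 1 (12 of 58, highest 499 CPM) and 86.1 CPM at day 14 (13 of 29, highest 1974 CPM). At day 14, 1 cell gave 67.2% of its reads, and without that cell the level was 29.1 CPM and neither call, against uninjected or day 1, remained. The call against uninjected was also lost against controls with other titles, at a log2 ratio of 0.24.

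Kcnf1, a silent subunit that modifies Kv2 channels, was at 83.7 CPM in uninjected cells (9 of 31, highest 502 CPM), 101.1 CPM at day 1 (28 of 58, highest 1305 CPM) and 230 CPM at day 14 (11 of 29, highest 974 CPM), and was called 2.74-fold higher at day 14. The call was lost with cells marked Failed added, without the deepest 10% of cells and against controls with other titles. GFP cells stood at 160 CPM and Id2 cells at 70.1 CPM. Kcna1, the axonal Kv1.1 pore gene, was at 304 CPM in uninjected cells (18 of 31, median 45.4 CPM, highest 1816 CPM), 214 CPM at day 1 (37 of 58, median 60.4 CPM, highest 2147 CPM) and 98.7 CPM at day 14 (16 of 29, median 30.4 CPM, highest 487 CPM). Day 14 was called lower, 3.08-fold against uninjected and 2.17-fold against day 1. No day 14 cell passed 487 CPM. Without the microglia-rich cells neither of these calls remained. Day 1 against day 14 then had log2 ratios of 1.28 from summed reads, 0.998 from cell means and 0.97 from thinned cells, so it ended at the threshold with its size nearly kept. Day 14 against uninjected had -1.68 from summed reads, but -0.35 from cell means and -0.22 from thinned cells.

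Between day 1 and day 14, 33 genes were measured and 12 (36.4%) were called, against 27.6% of all 9823 genes measured. Higher at day 1 were 5 (15.2%, against 13.2%) and lower were 7 (21.2%, against 14.4%). The members' median log2 ratio was -0.16 and that of all genes 0.02, while the 6 auxiliary genes had a median of -1.20. The higher calls at day 1 included Kcng1, a silent partner of Kv2 channels. Kcng1 was at 43.9 CPM at day 1 (15 of 58, highest 634 CPM) and 18.1 CPM at day 14 (6 of 29, highest 116.8 CPM), and 1 cell gave 74.7% of its uninjected reads. The Kcng1 call was lost without the microglia-rich cells and without the deepest cells, at a log2 ratio of 0.74 in both. The 3 comparisons described so far share cells (the day 1 and day 14 comparisons share the uninjected group), so their calls are not independent.

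Between Id2 and GFP cells most of these genes differed by less than 2-fold. Of 30 genes measured, 7 differed by 2-fold or more in summed reads and 5 (16.7%) were called, against 12.6% of all 7846 genes measured. Higher were 2 (6.67%, against 5.80%) and 3 lower (against 6.76% of all genes), and the members' median log2 ratio was -0.08 against -0.10 for all genes. None of the 5 was a KChIP, two-pore or inward rectifier gene. Only 5 Kv4 family (KChIP genes included), 2 two-pore and 1 inward rectifier genes were measured there. These are too few to set against the 12.6% of all genes called.

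Kcna3, the Kv1.3 pore gene, was read in 22 of 59 GFP cells (highest 1024 CPM) and 13 of 71 Id2 cells (highest 276 CPM), at 117.9 CPM (116.4 to 119.3) and 23.97 CPM (23.4 to 24.6), 4.92-fold lower with Id2. The median cell was 0 in both. Uninjected, day 1 and day 14 cells stood at 33.6, 25.8 and 9.55 CPM, so GFP cells were the high group. Kcna3 is also expressed by microglia, whose summed markers were 177 CPM in GFP and 588 CPM in Id2 cells, and without the microglia-rich cells its levels were 119.5 and 27.7 CPM. Kcna4, an inactivating Kv1 pore gene, was at 20.5 CPM in GFP cells (12 of 59, highest 501 CPM) and 70.5 CPM in Id2 cells (19 of 71, highest 1422 CPM), 3.44-fold higher with Id2. Uninjected, day 1 and day 14 cells (71.9, 62.1 and 71.1 CPM) lay near the Id2 level. Without the microglia-rich cells the uninjected level was 3.90 CPM, below the GFP level of 20.8 CPM, while day 1, day 14 and Id2 cells stood at 67.2, 51.7 and 81.5 CPM.

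Kcng2, a silent subunit, was at 63.2 CPM in GFP cells (18 of 59, highest 750 CPM) and 16.9 CPM in Id2 cells (14 of 71, highest 308 CPM), 3.73-fold lower, with 60.4 CPM in uninjected cells. Kcnn2, the SK2 gene, was at 84.8 CPM in GFP cells (23 of 59, highest 1432 CPM) and 30.6 CPM in Id2 cells (21 of 71, highest 546 CPM), 2.77-fold lower. Its log2 ratio was -0.15 within titles up to IDS 95 and -5.94 within the later titles, so this call rested on the second set of 16 GFP and 28 Id2 cells. Kcnq3 was at 61.2 CPM in GFP cells (31 of 59, highest 1447 CPM) and 132 CPM in Id2 cells (36 of 71, highest 2375 CPM), 2.16-fold higher, with reads in 52.5% and 50.7% of cells. Without the microglia-rich cells its log2 ratio was 0.34 and the call was lost, as it was without the deepest cells (0.35) and within the later titles (0.99). Kcna3, Kcna4 and Kcng2 were called under each of the 11 alternatives tried, while Kcnn2 and Kcnq3 were each called in 8.

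GFP cells against uninjected cells served as a background for virus, injection and collection together. The 2 groups share no title set, so title set cannot be told apart from these. Microglia-rich cells numbered 2 of 59 in the GFP group and 18 of 31 in the uninjected group. Of 31 genes measured, 4 (12.9%) were called, against 19.3% of all 8085 genes measured, 1 higher (3.23%, against 12.2%) and 3 lower (9.68%, against 7.14%). The members' median log2 ratio was -0.44 and that of all genes 0.13, with 12 members above 0 and 19 below. A members' median below that of all genes was thus seen against the uninjected group without kainate too. Called lower were Kcnab2, given above, Kcna4 (20.5 against 71.9 CPM, 3.51-fold) and Kcnc4, a Kv3 gene (67.5 against 150.0 CPM, 2.22-fold). The Kcnc4 call was lost against J-titled controls and without the highest cell of each group. The log2 ratio of Kcna4 turned to 2.15 without the microglia-rich cells. Kcnc4 was read in 19 of 31 uninjected cells (median 40.2 CPM, highest 1551 CPM) and 23 of 59 GFP cells (median 0, highest 657 CPM). The other leading genes of their families, Kcnc1 (75.2 and 30.8 CPM in uninjected and GFP cells) and Kcnv1 (120 and 66.2 CPM), were not called in any comparison, and Kcnrg stood below 1 CPM in all 5 groups.

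**Figure D4:**
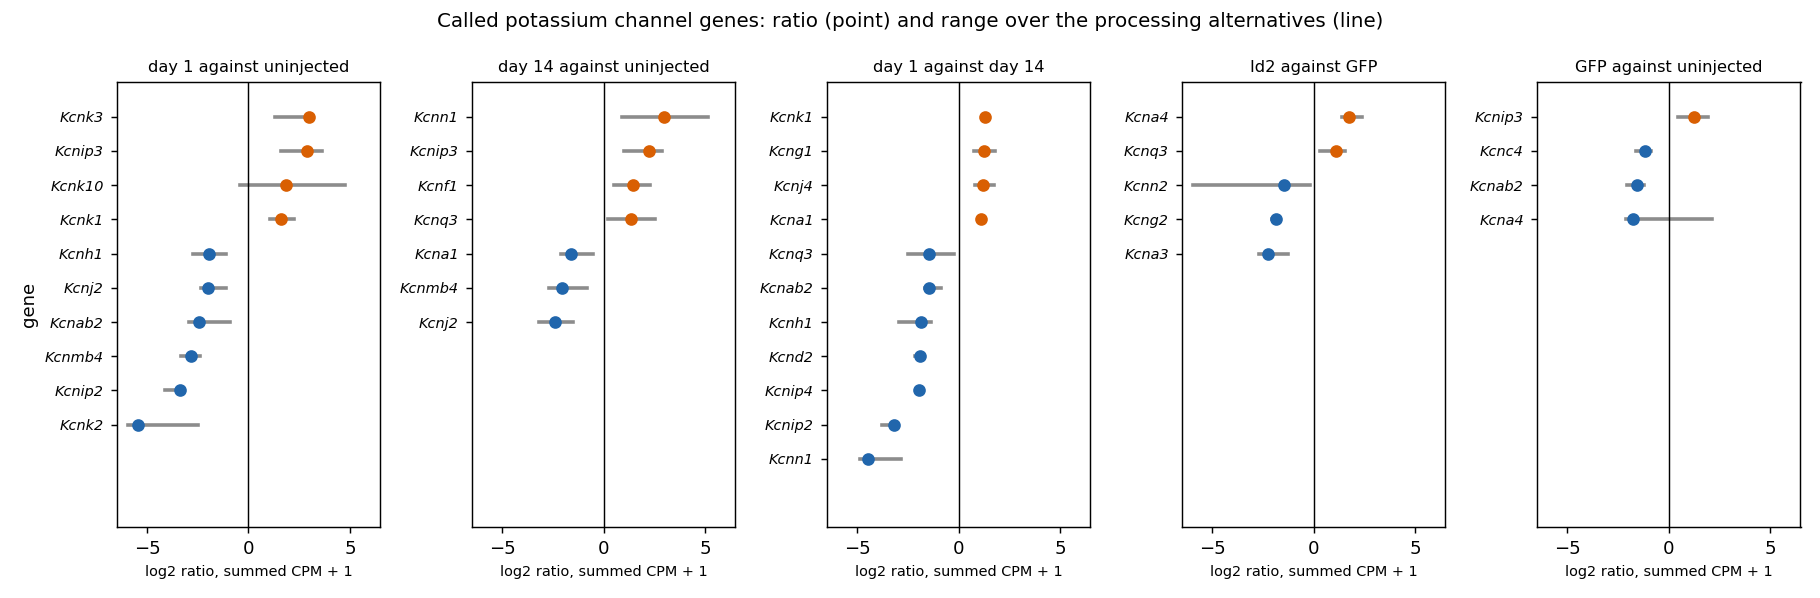
Log2 ratio of (CPM + 1) of summed counts for 23 of the potassium channel genes called in at least 1 of the 5 comparisons, in 1 panel per comparison. Points are the reported ratios and lines their range over the processing alternatives. Kcnk2 and Kcnip2 lie lowest at day 1, and Kcnip3 lies above 0 in both kainate comparisons with uninjected cells. None of these genes is among the Id2 calls, while Kcnq3 is called both with Id2 and at day 14.

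Channel genes typical of glia, other than Kcna3, were read in 5 cells or fewer of each group. Kcnj10, the astrocyte inward rectifier, was at most 0.298 CPM and Kcnn4, a microglial channel, at most 0.978 CPM in any group. Kcnj16 was at most 4.61 CPM and Kcnk13 at most 17.4 CPM. Of the channel genes typical of fast-spiking interneurons, Kcnc1 was at 75.2, 40.1, 39.6, 30.8 and 54.95 CPM in uninjected, day 1, day 14, GFP and Id2 cells, and Kcnc2 was at most 5.99 CPM in any group. The part of interneuron RNA in the Kcnc1 levels was not tested.

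Of 25 genes for proteins that bind or scaffold these channels, 17 were measured at day 1 against uninjected and 2 were called, where 25.4% of all genes measured were. Amigo1, an adhesion protein of Kv2 channels, was called higher (37.4 against 5.15 CPM), and the scaffold Dlg4 was called lower (4.38 against 13.5 CPM). At day 14, Amigo1 (46.6 CPM) and Vapb, which tethers Kv2 clusters at membrane contacts (14.9 against 3.59 CPM), were called higher and Cntnap2, which gathers Kv1 channels on axons (1.56 against 10.3 CPM), lower among 18 measured (26.2% of all genes were called there). For 2 of the lower calls the shares of cells with a read went the other way. These were Cntnap2 at day 14 (24.1% against 19.4% uninjected) and Dlg4 at day 1 (70.7% against 54.8%). The partner calls were not run under the processing alternatives. Amigo1 was at 40.4 CPM in GFP cells too, called higher than in uninjected cells there as well, and Akap5 was called higher in GFP than in uninjected cells (78.6 against 31.2 CPM). Between day 1 and day 14, 0 of 17 were called, against 27.6% of all genes. With Id2 against GFP, Vapb was called higher, and Akap5, a scaffold of M-channels (15.5 against 78.6 CPM), Amigo1 (11.6 CPM) and Dlg4 were called lower among 18, against 12.6% of all genes called. The calmodulin genes Calm2 and Calm3 and the Kv4 partner Dpp6 were called in no comparison.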

How the data were processed

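Each of 304 labelled samples was 1 cell's cytosol, made into a library with Nextera XT per the labels' protocols. The submitters' processing notes name Trimmomatic, STAR, featureCounts and GRCm38. Versions and the gene annotation were not given in the sources used here. Of the authors' 2 deposited tables the names and contents are exchanged: they hold whole-number counts per gene (291 cells, 22800 genes, 13 labelled samples without a column) and a scaled signal (252 cells), in which the deposited signal of a cell equals its counts times 1 factor. Counts were used, and the signal was an alternative. The 13 samples without a column, some of them marked Passed, could not be used. Of the 291 cells with counts, the 39 marked Failed were left out. Also left out were 2 contralateral cells and 2 cells labelled low_DG, whose counts correlated at 0.997 and 0.998 with an uninjected cell. No molecular identifiers are named, so reads are not independent molecules.

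Calls followed the rule of 3 ratios given in the report, with a pseudocount of 1 CPM. The rule was also run on simulated counts drawn around 1 common profile, without title sets. That run cannot speak for the calls made in these cells. Genes named were those called in a comparison, and the 2 of each family with the highest CPM averaged over uninjected and GFP cells. Others appear only to complete a short count or as glial or interneuron channel genes. Kcnd1, Kcnq5 and the other unmeasured genes listed were chosen after their values were seen. The members, lists and rules were chosen with earlier results of these data known. Alternatives were another pseudocount, no filter, the scaled signal, Failed cells added, other thinning, and leaving out deep, microglia-rich or highest cells, title sets or Id2 reads. Exon lengths are GENCODE M21 and all 91 members matched. Python 3.11.15, pandas 2.3.3 and SciPy 1.17.1 were used. Some genes counted among the members are not reported here by name.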

Additional observations from a re-analysis of the deposited data

How the results depend on the processing

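Of 51 alternative counts of called genes, 32 lay within 1.5 times the reported count and 19 did not. At day 1 (11 called) these were 22 with no filter on low genes and 20 against controls with other titles. At day 14 (7 called) they were 16 with no filter, 14 from the scaled signal, 16 without microglia-rich cells, 11 without the deepest 10% of cells, 16 with J-titled controls and 12 with other controls. Between day 1 and day 14 (12 called) they were 29 with no filter and 22 without microglia-rich cells. For Id2 against GFP (5 called) they were 12 with no filter, 9 from the scaled signal, 3 without the deepest cells, 10 within titles up to IDS 95 and 12 within later titles. For GFP against uninjected (4 called) they were 18 with no filter, 9 from the scaled signal, 8 without microglia-rich cells and 13 against other controls. With no filter, all 91 members counted as measured. With fewer cells or no filter, the count over all genes moved as well, and further causes were not tested. The share of all genes called under each setting is not given here. The alternative counts are therefore not read as a result about the channel genes. Of 39 calls, 37 kept their sign in every alternative run and 15 were called in every one. The 2 reversals were Kcnk10 at day 1 with GFP controls (-0.42) and Kcna4 in GFP against uninjected cells without microglia-rich cells (2.15). No paired analysis was possible because the labels name no animal and the groups share no replicate numbers. Precision is limited by the number of cells for genes read in few cells, and shares of cells also depend on depth, as for Kcnk3 at day 1 (22.4% of cells before and 12.1% after thinning).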
